A study of Homo sapiens with 12 samples.

Results

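Arginine metabolism was followed through 8 genes, ARG2, ASS1, ASL, AGMAT, AZIN1, AMD1, DDAH1 and DDAH2, taken by symbol from an expression table of 4918 genes. Of the 8, 7 had a row, and DDAH2 was not analysed here. The 7 genes were read in 12 samples of A375, an established human melanoma cell line, with 3 samples in each of 4 groups: untreated control cells, cells given SB-3CT, cells given IFN-γ, and cells given SB-3CT and IFN-γ together, each for 24 h. SB-3CT is a small-molecule inhibitor of the gelatinases MMP2 and MMP9, and IFN-γ is a cytokine released mainly by T cells and NK cells. The study measured RNA to find which pathways SB-3CT alters in A375 cells. The controls are labelled as having no treatment, while the treatment notes mention a vehicle, and neither gives a dose for these samples. The labels do not say whether the 3 samples of a group came from separate cultures, while a general remark in the study has its experiments repeated independently. The p-values measure the spread between these samples.

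Arginine is a semi-essential amino acid that cells either import or rebuild from citrulline. Arginases split it into ornithine and urea, ornithine is the starting point of the polyamines, and nitric oxide synthases use arginine to make nitric oxide. Many melanomas carry little of the citrulline-to-arginine enzyme ASS1 and so depend on arginine from outside the cell, which has made arginine depletion a treatment under study in this tumor.

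The genes were selected on their expression values in these samples, which were already known when the group was drawn up. The levels of ARG2, which heads the group, with and without IFN-γ are therefore given as a description without a p-value, and the tests of the other genes are not independent evidence. Levels are in FPKM, the fragments of a gene divided by its transcript length in kilobases and by the sample's mapped fragments, so they can be set side by side between genes. Changes are differences of mean log2(FPKM + 1), which understate the change of genes with low FPKM. A gene was called when its Benjamini-Hochberg adjusted p-value in limma, over all 4918 genes, was under 0.05. Only called genes are said to have risen or fallen. All comparisons with the same group share its 3 samples and are not independent of each other.

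The labels were checked for IFN-γ, and no such check was made for SB-3CT. CXCL10, an IFN-γ-induced chemokine gene, lay between 0 and 0.05 FPKM in the 6 samples without IFN-γ and between 78.7 and 122 FPKM in the 6 samples with it. Depth relative to the control mean ran from 87.2% to 150.1%. The number of reads behind a value is unknown, and counting error is left out. Of the melanocyte genes looked at, DCT reached at most 0.384 FPKM and CAPN3 0.322 FPKM, while ERBB3 and EDNRB were expressed. Of 17 markers of other cell types, 10 were in the table, and none exceeded 0.434 FPKM in any sample.

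Ordered by level, AMD1 was the highest of the genes, with a mean over the 12 samples of 30.8 FPKM. AZIN1 followed at 24.6 FPKM, ASL at 14.1 FPKM, ARG2 at 7.40 FPKM, DDAH1 at 3.78 FPKM and ASS1 at 1.47 FPKM. AGMAT, which encodes agmatinase, the enzyme that turns agmatine into the polyamine putrescine, was hardly detected. It was listed at 0 in 6 of the 12 samples and reached at most 0.102 FPKM, so no change of it is read here.

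**Figure D1:**
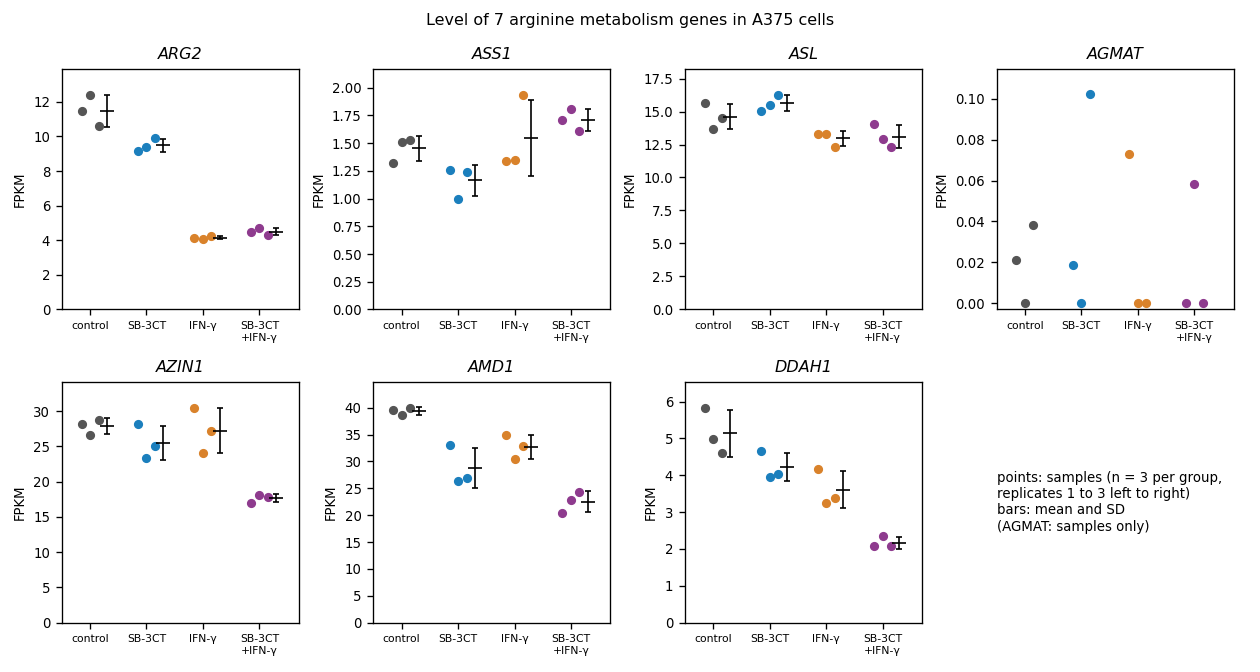
FPKM of the 7 genes in the 4 groups of A375 cells (1 panel per gene, each with its own linear axis; points are the 3 samples of a group, and bars are mean and SD, left out for AGMAT). ARG2 lay between 4.05 and 4.73 FPKM in the 6 samples with IFN-γ and between 9.15 and 12.4 FPKM in the 6 samples without it.

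ARG2 encodes arginase 2, the mitochondrial arginase, and is the arginase gene of most tissues outside the liver. Its level followed IFN-γ more than SB-3CT. It was 11.5, 12.4 and 10.6 FPKM in the control samples and 9.15, 9.40 and 9.89 FPKM with SB-3CT. With IFN-γ it was 4.15, 4.05 and 4.22 FPKM, and with both agents 4.47, 4.73 and 4.31 FPKM. No sample with IFN-γ reached the lowest sample without it. The mean with IFN-γ was 4.14 ± 0.09 FPKM (SD, n = 3), which was 0.361 times the control mean of 11.5 ± 0.92 FPKM (SD, n = 3). The difference was -1.28 on the log2 scale (SE 0.07). In cells given SB-3CT, the difference between cells with and without IFN-γ was -0.93 (SE 0.06). In order of level, control stood above SB-3CT, followed by both agents and then IFN-γ. Both pairs of neighbours at the ends of this order were close: SB-3CT differed from control by -0.25 (SE 0.07), and both agents from IFN-γ alone by 0.10 (SE 0.07), with no overlap of samples in either pair.

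ARG2 lies on the plus strand of chromosome 14 (hg19, 68086637 to 68118425), with 8 exons in its canonical transcript of 1911 bases. VTI1B overlaps it on the opposite strand, and since strand was not stated for these libraries, reads in the overlap cannot be assigned. The 250 bases before a start were read from RefSeq for all members with a window there. Only windows in which a searched motif was found are shown, so a match in them was fixed by the choice. One is that of ARG2 (GRCh38.p14, plus strand, chr14:67619670-67619919). Capitals mark the cAMP response element CRE (TGACGTCA, its own reverse complement), which binds proteins of the CREB and ATF families. RefSeq gives 2 windows for ASS1, and the 1 without a searched motif is not shown. The other (GRCh38.p14, plus strand, chr9:130444711-130444960) is set beside that of ARG2. Capitals there mark an E-box (CACGTG, also its own reverse complement), the element bound by MYC and other helix-loop-helix factors.
ARG2: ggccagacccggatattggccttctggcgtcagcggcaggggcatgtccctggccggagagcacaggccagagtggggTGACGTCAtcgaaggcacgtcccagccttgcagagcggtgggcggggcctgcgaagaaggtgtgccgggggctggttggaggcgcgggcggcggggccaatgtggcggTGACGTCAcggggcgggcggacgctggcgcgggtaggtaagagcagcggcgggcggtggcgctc
ASS1: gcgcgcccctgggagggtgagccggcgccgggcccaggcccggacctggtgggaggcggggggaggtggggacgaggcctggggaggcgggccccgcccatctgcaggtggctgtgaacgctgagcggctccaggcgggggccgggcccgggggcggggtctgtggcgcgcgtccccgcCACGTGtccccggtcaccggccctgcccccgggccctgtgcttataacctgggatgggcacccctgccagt

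The 2 CREs of ARG2 lie 172 to 165 and 64 to 57 bases before the start, and the E-box of ASS1 lies 71 to 66 bases before it. A CRE was present in 1.65% of the 35116 RefSeq windows of this length, 2 or more of them in 0.054%, and an E-box in 6.34%. Both strands were also searched for the IFN-γ-activated site (GAS, TTCNNNGAA), the interferon-stimulated response element (ISRE), the C/EBP-ATF response element (TGATGNAA) and the antioxidant response element (TGACNNNGC), which were present in 6.57%, 3.02%, 3.14% and 10.91% of all windows. None of these was in the 11 windows that RefSeq gives for ARG2, ASS1, ASL, AGMAT, AMD1 and DDAH1. AZIN1 had no window in the table.

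ASS1 and ASL encode argininosuccinate synthase and argininosuccinate lyase, which rebuild arginine from citrulline in consecutive steps. ASS1 was low in every sample, between 1.00 and 1.94 FPKM, and ASL was between 12.3 and 16.3 FPKM. ASS1 was 1.32, 1.51 and 1.53 FPKM in the control samples, 1.25, 1.00 and 1.24 FPKM with SB-3CT, 1.34, 1.35 and 1.94 FPKM with IFN-γ, and 1.71, 1.80 and 1.61 FPKM with both. ASL was 15.6, 13.7 and 14.5 FPKM in the control samples, 15.1, 15.5 and 16.3 FPKM with SB-3CT, 13.3, 13.3 and 12.3 FPKM with IFN-γ, and 14.0, 12.9 and 12.3 FPKM with both. The 3 SB-3CT samples of ASS1 were below all others, the samples with both agents were above those of control, and the IFN-γ samples overlapped both of these groups. ASS1 (chromosome 9 of hg19, 133320348 to 133376661, 15 exons) has 14 pseudogenes by name, and ASL (chromosome 7, 65540787 to 65559684, 17 exons) has 1, so reads may be split between copies and the level of ASS1 in particular is uncertain.

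AMD1 and AZIN1 belong to the polyamine branch. AMD1 encodes S-adenosylmethionine decarboxylase, which supplies the aminopropyl groups of spermidine and spermine. AZIN1 encodes antizyme inhibitor 1, which keeps antizyme from driving ornithine decarboxylase, the first enzyme of polyamine synthesis, to degradation. AMD1 was 39.5, 38.7 and 40.0 FPKM in the control samples, 33.0, 26.4 and 26.8 FPKM with SB-3CT, 34.9, 30.4 and 32.9 FPKM with IFN-γ, and 20.4, 22.8 and 24.3 FPKM with both. AZIN1 was 28.2, 26.6 and 28.8 FPKM in the control samples, 28.1, 23.4 and 25.0 FPKM with SB-3CT, 30.5, 24.0 and 27.2 FPKM with IFN-γ, and 17.0, 18.1 and 17.8 FPKM with both. On the deposited scale, the 3 samples given both agents were below all other 9 samples for both genes, and for AMD1 the 3 control samples were above all others. On that scale 31.5% of all genes were called lower with both agents than with IFN-γ, and 32.7% lower than with SB-3CT. After scaling by the median ratio, described below, AMD1 with both agents differed from SB-3CT by -0.09 and was not called. DDAH1 encodes a dimethylarginine dimethylaminohydrolase, which removes asymmetric dimethylarginine, an inhibitor of nitric oxide synthases. It was 5.83, 4.99 and 4.59 FPKM in the control samples, 4.65, 3.95 and 4.04 FPKM with SB-3CT, 4.18, 3.26 and 3.38 FPKM with IFN-γ, and 2.09, 2.36 and 2.07 FPKM with both. On the deposited scale the 3 samples given both agents were again the lowest, while SB-3CT overlapped control and IFN-γ. How many of all genes separate in this way was not counted, so the separation is not read as particular to AMD1, AZIN1 or DDAH1. AMD1 (chromosome 6 of hg19, 111195973 to 111220082, 9 exons) has 5 pseudogenes by name, and none is named for AZIN1 (chromosome 8, 103838339 to 103906092, 12 exons) or DDAH1 (chromosome 1, 85784164 to 86044046, 6 exons). Antisense genes overlap these last 2, MAILR at AZIN1 and BCL10-AS1 at DDAH1, and their reads cannot be told apart without strand.

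SB-3CT alone was compared with control to see what the inhibitor does without the cytokine. AMD1 fell by 0.45 on the log2 scale (SE 0.08, limma adjusted p = 0.0222), to 0.730 times the control mean, and was the only one of the 7 genes called. Among all genes, 5.37% were called higher and 6.87% lower. The next in order was ARG2, whose difference of -0.25 had a 95% interval of -0.41 to -0.09. For the rest, the differences were -0.23 for DDAH1 (95% interval -0.47 to 0.00), -0.18 for ASS1 (-0.37 to 0.00), -0.13 for AZIN1 (-0.29 to 0.04) and 0.09 for ASL (-0.05 to 0.24). The call of AMD1 was lost when any control sample, or SB-3CT replicate 2 or 3, was left out, with limma adjusted p-values between 0.0833 and 0.099.

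Around these genes, 41 others of arginine, polyamine, creatine and nitric oxide metabolism and of the response to amino acid shortage were read from 48 listed symbols. The table runs from A1BG to FAM46B, so genes with later symbols are absent and each group covers only part of its pathway. With SB-3CT alone 8 of the 41 rose and 3 fell, which is 19.5% and 7.32% of them beside 5.37% and 6.87% of all genes. Their median difference was 0.05, against -0.01 over all genes. The rises were mostly in the shortage response, where 6 of 9 genes rose, the median difference being 0.53. That name is the one of the list, no amino acid was measured, and the cause of the rises was not tested. CHAC1, which degrades glutathione, went from a control mean of 5.50 ± 0.36 FPKM to 13.6 ± 1.00 FPKM (SD, n = 3 each, log2 difference 1.17). DDIT3, the gene of the transcription factor CHOP, went from 18.3 ± 1.27 to 35.3 ± 3.72 FPKM (0.91), and ATF3, a stress-induced transcription factor gene, from 4.07 ± 0.17 to 7.79 ± 0.46 FPKM (0.79). ASNS (0.66), ATF4 (0.35) and ATF5 (0.29) completed the 6. Of 13 polyamine and methionine salvage genes, ADI1 (0.37) and DHPS (0.15) rose, and ATP13A3, a gene of the polyamine transporter family, fell by 0.34. CPS1, the carbamoyl phosphate synthetase of the urea cycle, fell by 0.51, to 0.616 ± 0.04 FPKM (SD, n = 3). Leaving out control replicate 1 or 3 or SB-3CT replicate 2 lowered the number of called genes from 11 to 6 of 41, and leaving out control replicate 2 lowered it to 7.

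IFN-γ was compared with control to see the response to the cytokine itself. Besides ARG2, whose difference is described above, AMD1 fell by 0.26 (SE 0.06, limma adjusted p = 0.0229) and DDAH1 by 0.41 (SE 0.11, adjusted p = 0.0499), to 0.831 and 0.702 times the control mean. Among all genes, 11.0% were called lower and 8.46% higher. These shares stand here only as background, since the 7 genes were selected on these values. ASL was below control in all 3 samples, with a difference of -0.16 (95% interval -0.31 to -0.01) that was not called. The differences of ASS1, 0.04 (95% interval -0.21 to 0.30), and of AZIN1, -0.04 (95% interval -0.25 to 0.17), were within the spread between samples. Without control replicate 1, 2 or 3, or without IFN-γ replicate 3, neither AMD1 nor DDAH1 was called. The limma adjusted p-value of DDAH1 was then between 0.0775 and 0.149.

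Of the 41 related genes, 6 rose and 8 fell with IFN-γ, which is 14.6% and 19.5% of them beside 8.46% and 11.0% of all genes. Their median difference was -0.05, against -0.02 over all genes. ATF3 rose most, from 4.07 ± 0.17 to 13.9 ± 0.48 FPKM (SD, n = 3 each, log2 difference 1.55). CHAC1 (0.88) and ASNS (0.37), which encodes asparagine synthetase, rose with it, while DDIT3 was at 18.3 ± 1.27 FPKM in control and 19.3 ± 0.25 FPKM with IFN-γ (0.08). AZIN2, a paralog of AZIN1, rose from 3.47 ± 0.40 to 5.08 ± 0.23 FPKM (0.45), ATP13A3 rose by 0.34 and CALM3 by 0.39. In the arginine, ornithine and urea cycle group, 3 of 7 genes were called lower. They were the mitochondrial carbonic anhydrase gene CA5B (-0.44), CPS1 (-0.36) and the proline and ornithine synthesis gene ALDH18A1 (-0.33). In methionine salvage, APIP fell by 0.45, ADI1 by 0.31 and AHCY by 0.20. The brain-type creatine kinase gene CKB fell from 47.4 ± 1.74 to 32.2 ± 0.36 FPKM (log2 difference -0.55). Leaving out control replicate 3 lowered the number of called genes from 14 to 7 of 41, and leaving out control replicate 1 or IFN-γ replicate 3 lowered it to 9.

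**Figure D2:**
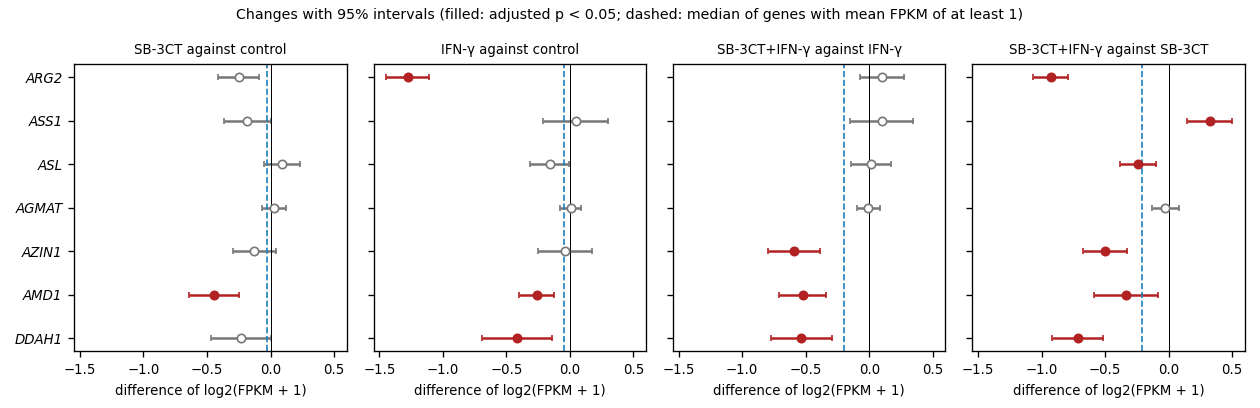
Differences of log2(FPKM + 1) of the 7 genes in 4 comparisons of 3 against 3 samples, with 95% intervals. Filled points had a limma adjusted p-value under 0.05, and the dashed line is the median of genes averaging 1 FPKM or more, which lay at -0.03, -0.04, -0.20 and -0.21 from left to right. ARG2 was selected on its levels with and without IFN-γ, so its points and intervals for IFN-γ are a description.

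SB-3CT was added to IFN-γ in the comparison the study drew on. The 2 polyamine genes and DDAH1 fell, and the genes of arginine breakdown and synthesis did not pass the test. AZIN1 fell by 0.59 (SE 0.09, limma adjusted p = 0.00291), AMD1 by 0.52 (SE 0.08, adjusted p = 0.00315) and DDAH1 by 0.53 (SE 0.10, adjusted p = 0.00654). Their means with both agents were 0.648, 0.686 and 0.602 times those with IFN-γ alone. These 3 of 7 genes stand beside 31.5% of all genes called lower and 6.41% called higher, so falls were frequent in the whole table. The differences of ARG2, 0.10 (95% interval -0.08 to 0.27), ASS1, 0.10 (95% interval -0.15 to 0.35), and ASL, 0.01 (95% interval -0.15 to 0.17), were not called.

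The whole table shifted in this comparison, and the shift differed with transcript length. The median difference was -0.20 among genes averaging 1 FPKM or more. It was 0.03 in the genes with the shortest transcripts (249 to 2234 bases), -0.23 in an equal number of middle length (2237 to 4136 bases) and -0.39 in those with the longest (4139 to 24709 bases). ARG2 (1911 bases), ASS1 (1532 bases) and ASL (2140 bases) belong to the shortest class. AMD1 (3423 bases) and DDAH1 (3939 bases) belong to the middle class, and AZIN1 (4196 bases) to the longest. After the trend of a sample with transcript length was removed, the falls were 0.28 for AZIN1, 0.26 for AMD1 and 0.31 for DDAH1 on the log2 scale, and all 3 were still called. Scaling by the median ratio, which brings the median to 0.02, also left these 3 called, and it called ARG2 (0.31, limma adjusted p = 0.0124) and ASL (0.25, adjusted p = 0.0318) higher. Under quantile normalization ARG2 (0.39, adjusted p = 0.00885) and ASS1 (0.36, adjusted p = 0.0397) were called higher. ARG2 was not called with the length trend removed (0.17, limma adjusted p = 0.104, where the median of the table was -0.03) or on the deposited scale, so its call in this comparison rests on the scaling.

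**Figure D3:**
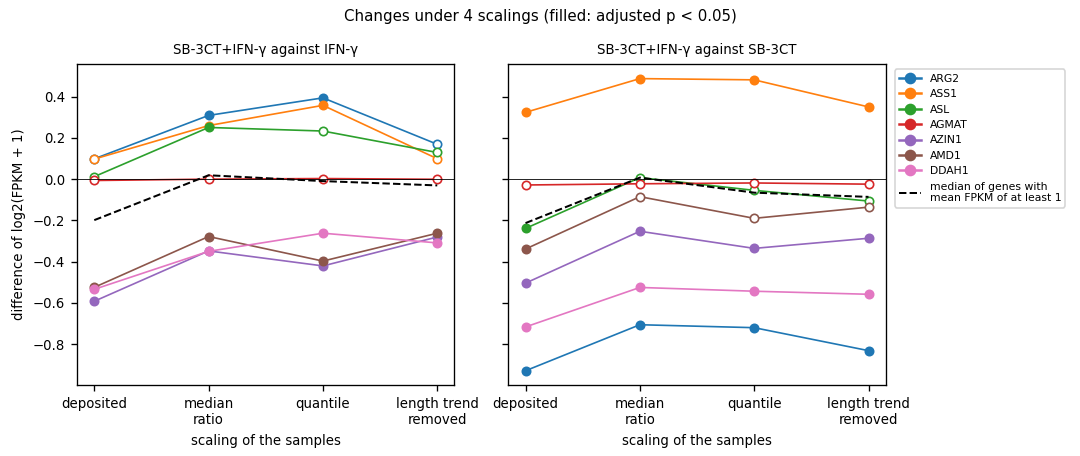
Differences of log2(FPKM + 1) of the 7 genes under 4 scalings of the samples, for SB-3CT+IFN-γ against IFN-γ (left) and against SB-3CT (right). Filled points had a limma adjusted p-value under 0.05. The dashed median of genes averaging 1 FPKM or more rose from -0.20 to 0.02 on the left under the median ratio, and AZIN1, AMD1 and DDAH1 stayed below 0 on both sides. The points of ARG2 on the right are a description, since it was selected on its levels with and without IFN-γ.

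Of the 41 related genes, 7 rose and 11 fell when SB-3CT was added to IFN-γ, which is 17.1% and 26.8% of them beside 6.41% and 31.5% of all genes. Under scaling by the median ratio the split was 14 and 4, with 16.5% of all genes called higher and 15.5% lower. In the shortage response, 4 of 9 genes rose and 0 fell, and 7 rose and 0 fell under the median ratio. DDIT3 rose from 19.3 ± 0.25 to 46.3 ± 2.40 FPKM (SD, n = 3 each, log2 difference 1.22), ASNS from 42.8 ± 1.87 to 75.0 ± 2.59 FPKM (0.80) and CHAC1 to 17.6 ± 0.94 FPKM (0.64). ATF3 was at 13.9 ± 0.48 and 14.5 ± 0.81 FPKM (0.06). DYNLL1, a dynein light chain gene whose product also binds neuronal nitric oxide synthase, rose by 0.58. The largest fall was that of ATP13A3, from 14.0 ± 1.21 to 7.26 ± 0.29 FPKM (-0.86). The arginyltransferase gene ATE1 fell by 0.57. Of the 7 arginine, ornithine and urea cycle genes 4 were called lower and 0 higher, and of the 13 polyamine genes 4 lower and 2 higher. The shares called lower are 57.1% and 30.8%, beside 31.5% of all genes. Under the median ratio 1 of the 7 was called lower and 1 higher. Of the 13 polyamine genes 1 was then lower and 5 higher (38.5%, beside 16.5% of all genes). No common direction of the polyamine group is read.

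CEBPB, a transcription factor gene of the shortage response, varied too widely within groups for any reading. Its 3 control samples were at 5.16, 27.6 and 33.6 FPKM, those with SB-3CT at 4.88, 54.1 and 55.3 FPKM, and those with both agents at 4.31, 5.43 and 85.8 FPKM. With IFN-γ alone they were at 51.2, 60.0 and 69.6 FPKM. It was called in none of the 5 comparisons.

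IFN-γ was also compared within cells given SB-3CT. Among all genes, 32.7% were called lower and 7.85% higher, shares that again stand only as background. Besides ARG2, DDAH1 fell by 0.72 (SE 0.08, limma adjusted p = 0.00161), to 0.515 times the SB-3CT mean, and AZIN1 by 0.50 (SE 0.07, adjusted p = 0.00308). ASS1 rose by 0.32 (SE 0.07, adjusted p = 0.0153), from 1.16 ± 0.14 to 1.71 ± 0.10 FPKM (SD, n = 3 each). AMD1 (-0.34, adjusted p = 0.042) and ASL (-0.24, adjusted p = 0.0209) were called lower on the deposited scale and under none of the 3 other scalings. Under the median ratio AMD1 was at -0.09 and ASL at 0.01, neither was called, and ASS1 was at 0.49 (limma adjusted p = 0.00431). The call of ASS1 was lost without SB-3CT+IFN-γ replicate 2 (limma adjusted p = 0.0536), that of AMD1 without any one of the 6 samples, and that of ASL without replicate 2 or 3 of either group. Without SB-3CT+IFN-γ replicate 2, 3 of the 7 genes were called.

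Of the related genes, 6 rose and 20 fell in this comparison, which is 14.6% and 48.8% of them beside 7.85% and 32.7% of all genes. Under the median ratio the split was 10 and 7, where 13.7% of all genes were called higher and 10.2% lower. ATF3 (0.82), ASNS (0.51) and DDIT3 (0.39) rose most, followed by CHAC1, CYGB and DYNLL1 with differences between 0.34 and 0.35. CYGB was hardly expressed, at 0.139 ± 0.12 FPKM with SB-3CT and 0.449 ± 0.13 FPKM with both (SD, n = 3 each). With SB-3CT it was listed at 0 in 1 sample, so little is read from its change. In the shortage response 4 of 9 genes rose and 2 fell, DDIT4 by 0.44 and ATF5 by 0.28, and the median difference of that group was -0.04. In the arginine, ornithine and urea cycle group, 6 of 7 genes fell, and 4 of 7 under the median ratio. CA5B (-0.73) and ALDH4A1 (-0.59), a mitochondrial gene of proline and ornithine breakdown, led them. CPS1, the urea cycle synthetase of the group, was not called (-0.05). CKB fell from 42.9 ± 3.15 to 28.9 ± 1.29 FPKM (SD, n = 3 each, log2 difference -0.55). Of the 13 polyamine genes 8 fell and 0 rose, but under the median ratio 1 fell and 2 rose, so no common direction of that group is read.

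**Figure D4:**
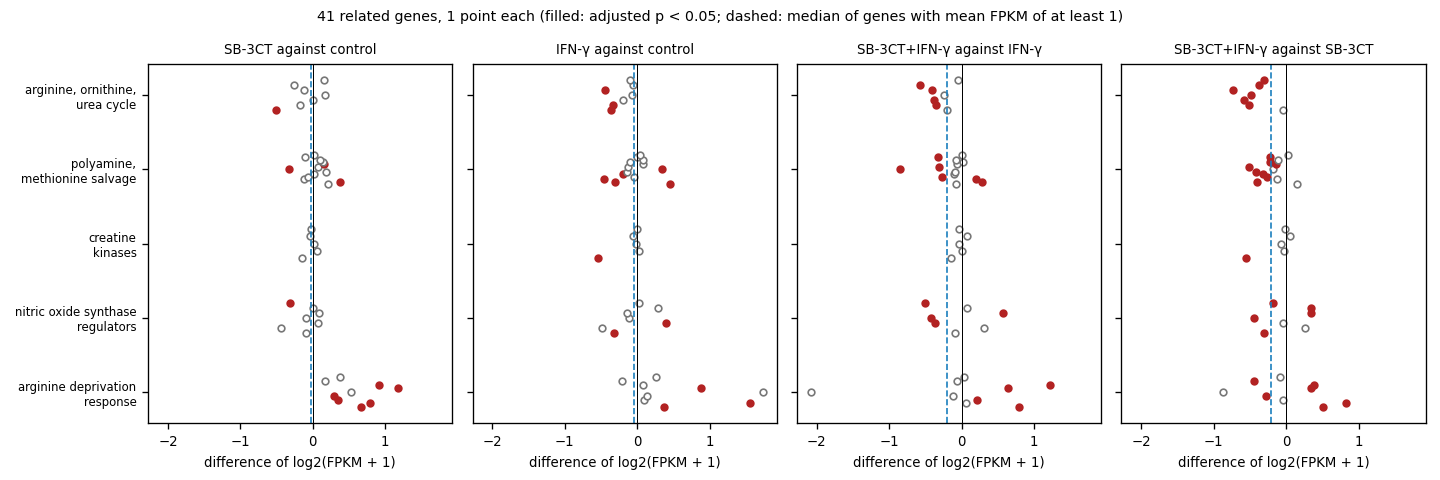
Differences of log2(FPKM + 1) of 41 related genes in 5 groups (rows), for 4 comparisons of 3 against 3 samples, with 1 point per gene. Filled points had a limma adjusted p-value under 0.05, and the dashed line is the median of genes averaging 1 FPKM or more. The shortage response (bottom row) had 6 of 9 genes called higher with SB-3CT alone, 3 with IFN-γ, 4 with SB-3CT added to IFN-γ, and 4 with IFN-γ added to SB-3CT, beside 5.37%, 8.46%, 6.41% and 7.85% of all genes. In the last of these comparisons 2 of the 9 were called lower.

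Whether SB-3CT acted differently in the presence of IFN-γ was tested over all 12 samples as the difference between its 2 changes. For ARG2 the change with SB-3CT was -0.25 without IFN-γ and 0.10 with it, and the difference was 0.35 (SE 0.09). It is built from the levels of ARG2 with and without IFN-γ, on which the gene was selected. This difference of ARG2 and its values under other settings below are therefore a description and not a test. For AZIN1 the changes were -0.13 and -0.59, and the difference was -0.47 (SE 0.12, 95% interval -0.72 to -0.21, limma adjusted p = 0.0179). Among all genes, 4.74% were called higher and 17.6% lower. The difference of ARG2 was 0.52 under the median ratio and 0.43 with the length trend removed. That of AZIN1 was no longer called in either, at -0.26 (limma adjusted p = 0.0567) and -0.22 (adjusted p = 0.095). That of ARG2 was 0.30 without control replicate 2 and 0.32 without SB-3CT+IFN-γ replicate 2. The differences of ASS1, 0.28 (95% interval -0.01 to 0.57), DDAH1, -0.30 (-0.61 to 0.01), AMD1, -0.08 (-0.35 to 0.19), and ASL, -0.08 (-0.27 to 0.12), were not called. Of the related genes, 3 were called higher and 11 lower, and under the median ratio 6 higher and 3 lower, where 7.81% of all genes were called higher and 5.23% lower. Without control replicate 2 the number of related genes called went from 14 to 9.

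The 5 genes whose log2(FPKM + 1) followed that of ARG2 most closely over the 12 samples, among genes averaging 1 FPKM or more, were DANCR (Pearson r 0.985), ARPP21 (0.978), FAHD2B (0.973), EIF2B2 (0.967) and CDS1 (0.967). These correlations are a description, since the 12 points fall into the 4 groups and share their libraries. DANCR, a long non-coding RNA gene, had group means of 164 FPKM in control, 145 with SB-3CT, 58.0 with IFN-γ and 71.7 with both. EIF2B2, which encodes a subunit of the translation initiation factor eIF2B, had 42.8, 41.6, 30.6 and 30.8 FPKM in the same order. In CDS1, a CDP-diacylglycerol synthase gene, the mean was 2.89 FPKM in control, 2.40 with SB-3CT, 0.781 with IFN-γ and 0.488 with both, so it was lowest with both agents where ARG2 was lowest with IFN-γ alone.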

How the data were processed

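Reads had been aligned by the authors with HISAT2 2.0.5 to hg19, and FPKM estimated with StringTie 1.3.3, per the labels. The deposited values are log2(FPKM + 1), with a maximum of 12.16, so the pseudocount of 1 is already in them. The test had been planned on log2(FPKM + 1), and was run on the deposited values without taking logarithms again. FPKM was recovered as 2 to the power of the value, minus 1. Each column was assigned by its name, leaving 0 unused. The table holds 4918 genes, from A1BG to FAM46B.

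The members, the related genes and the motifs were chosen with earlier results of these data known. Comparisons used limma 3.58.1 (R 4.3.3, lmFit, eBayes with a variance trend) without pairing, on the 3 + 3 samples concerned, with Benjamini-Hochberg adjustment over 4918 genes. The difference of the SB-3CT changes was fitted over 12 samples. An exact permutation test of 3 against 3 samples cannot give a p-value under 0.1. The fits were tested on simulated data. All members were named, with the called related genes of a mean FPKM of 1 or more that changed most (3 in each direction and comparison) and the 5 genes most like ARG2. Other related genes, CPS1 (mean 0.819 FPKM) and CEBPB among them, were named after their values were seen. Some results under this rule are not reported here. Samples were called separate when all of 1 group lay above all of the other.

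Positions and transcript lengths came from GENCODE 44 mapped to hg19 (4873 genes, 99.1%, 415 through an older symbol), and promoter windows from RefSeq (GRCh38.p14). Relative depth came from steps in FPKM values below 0.15 over 66 pairs of samples. As alternatives, the pseudocount was set to 0.1, genes averaging under 1 FPKM were dropped, samples were scaled by the median ratio or by quantile normalization, the 4 groups were fitted together, the replicate number was added as a block, a per-gene equal-variance test was run, and each sample was left out. Removing the trend of a sample with transcript length, at constant summed FPKM, was added after the data had been seen. Deviations from the group means had correlations of -0.39 to 0.17 between samples with the same replicate number in the 4 pairwise comparisons. With so few samples per group this cannot settle whether the numbers pair them, and they were treated as unpaired.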

Additional observations from a re-analysis of the deposited data

Results flagged for a closer look

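The change with SB-3CT was compared between cells with and without IFN-γ by the test of the difference over all 12 samples (limma, adjusted over all genes). The genes listed were all called by it on the deposited scale. For ARG2, selected on these levels, the listing is therefore a description. In ARG2 the change was higher with IFN-γ by 0.35 (SE 0.09), a value given without a p since the gene was selected on these levels, and in AZIN1 lower, by -0.47 (SE 0.12, adjusted p = 0.0179). Among related genes it was higher with IFN-γ in DYNLL1, where changes of 0.09 without and 0.58 with IFN-γ differed by 0.48 (adjusted p = 0.00835), and in APIP, where -0.13 and 0.20 differed by 0.33 (adjusted p = 0.00778). It was lower with IFN-γ in ATF3, where 0.79 and 0.06 differed by -0.73 (adjusted p = 0.00141). In CHAC1 changes of 1.17 and 0.64 differed by -0.53 (adjusted p = 0.00738), and in ATP13A3 changes of -0.34 and -0.86 differed by -0.52 (adjusted p = 0.0113). Of related genes named after their values were seen, the difference was -0.43 in CALM3 (adjusted p = 0.00552), -0.42 in ATF5 (adjusted p = 0.00922), -0.22 in DHPS (adjusted p = 0.0138), -0.38 in ALDH4A1 (adjusted p = 0.0218) and 0.31 in CPS1 (adjusted p = 0.0441). The median difference of genes averaging 1 FPKM or more was itself -0.19, close to that of DHPS. The limma adjusted p-value of AZIN1 was 0.0567 under the median ratio, 0.0584 under quantile normalization and 0.095 with the length trend removed, so it was called in none of these. Of the 41 related genes, 11 were called lower and 3 higher on the deposited scale, but 3 lower and 6 higher under the median ratio. No group had the 4 samples needed to look for a sample far from the others.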

How the results depend on the processing

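Depth is known only relatively and each group has 3 samples, so small changes of low genes such as ASS1 and AGMAT cannot be resolved. Of the 35 changes of single genes (7 genes in 5 comparisons), 22 kept their direction and their side of the threshold under every alternative, 12 changed side under at least 1, and 1 reversed: ASL in SB-3CT+IFN-γ against SB-3CT, which was 0.0074 under the median ratio. A change of sign between values that were not called was not counted.

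The number of the 7 genes, AGMAT included, called with SB-3CT against control was 1, beside 5.37% of all genes called higher and 6.87% lower. It was 2 with a mean FPKM of at least 1, with all 4 groups in one fit and with the length trend removed, and 0 with the per-gene test, and it ranged from 0 to 1 when each sample was left out. With IFN-γ it was 3, beside 8.46% of all genes called higher and 11.0% lower. The per-gene test called 1, and the range was 1 to 3 when each sample was left out. With SB-3CT added to IFN-γ it was 3, beside 6.41% of all genes called higher and 31.5% lower. It was 5 under the median ratio (16.5% and 15.5% of all genes) and under quantile normalization (11.0% and 14.5%). With IFN-γ added to SB-3CT it was 6, beside 7.85% of all genes called higher and 32.7% lower. It was 3 with the replicate block and without SB-3CT+IFN-γ replicate 2, the range with a sample left out being 3 to 5. For the difference of the SB-3CT changes it was 2, beside 4.74% of all genes called higher and 17.6% lower. It was 1 under the median ratio (7.81% and 5.23% of all genes) and with the length trend removed (4.7% and 4.74%). The range was 1 to 3 when each sample was left out. The counts with IFN-γ, with IFN-γ added to SB-3CT and for this difference include ARG2, which was selected on those levels. They are therefore a description. Shares of all genes are left out for the other alternatives, here and below.

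The number of the 41 related genes called was 11 with SB-3CT, and 6 with the per-gene test (6 to 14 with a sample left out). It was 14 with IFN-γ, and 9 with the per-gene test (7 to 16). With IFN-γ added to SB-3CT it was 26, against 17 under the median ratio and 16 with the length trend removed. For the difference it was 14, against 9 under the median ratio, 8 under quantile normalization and 9 to 18 with a sample left out. The cause of these changes was not tested. The replicate block moved no other count of calls by over 1.5 times.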
